A study of Mus musculus with 6 samples.

Results

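The genes described here are 4 ligands of the epidermal growth factor (EGF) family (Hbegf, Areg, Ereg and Tgfa) and 3 receptors of the ERBB family (Egfr, Erbb2 and Erbb3). A further 3 are grouped here as dampers of these receptors (Errfi1, Lrig1 and Lrig3), a label that was not tested, for Lrig3 least of all. All 10 genes were chosen by gene symbol, and all were found among the 25899 symbols of the deposited count table. The assay captured newly made RNA from E14tg2a mouse embryonic stem cells (129SV background) with a stable cRAF-ErT2 cassette, a RAF kinase fused to a hormone-binding domain so that 4-hydroxytamoxifen (4OHT) activates it and, through it, ERK signalling. All cells were grown with serum, LIF and 2 µM Chir99021, a GSK3 inhibitor, and for 24 h before treatment with serum, LIF and 250 nM PD173074, an FGF receptor inhibitor, so the untreated group carries the cassette and the inhibitor too. The 3 untreated libraries and the 3 libraries after 2 h of 250 nM 4OHT came from the same 3 clones, a, b and c, with 1 library per clone and group, and each culture received 5 mM ethynyl uridine for the last 15 min to tag RNA as it was made. The promoter that drives the cassette is not given in the sources used here, and neither 4OHT-treated cells without the cassette nor a solvent control is among the samples, so direct effects of 4OHT and effects of the activated kinase cannot be told apart.

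Ligands of the EGF family are made as membrane-anchored precursors, cut from the cell surface by metalloproteases, and bind ERBB receptors, which pair up and phosphorylate each other to start RAS, RAF and ERK signalling inside the cell. ERBB2 has no known soluble ligand of its own and acts as a partner, and ERBB3 has a weak kinase and signals mainly through its partners. ERRFI1 (MIG6) binds the kinase domain of the receptors and blocks it, and LRIG1 lowers receptor levels at the membrane. EGF family ligand genes and Errfi1 are known in many cell types as genes that ERK itself switches on, so that the pathway feeds both forward and back on its own receptors.

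Totals were 9745747 to 12168380 counts in untreated and 7295334 to 9431819 in treated libraries. Values are CPM, counts scaled to library depth with TMM, with SD over n = 3 libraries; fold changes are log2 values of 4OHT against untreated with their SE, from edgeR's quasi-likelihood test over 13869 genes with Benjamini-Hochberg adjustment, called below 0.05. A gene with no count could still have up to 3 counts by counting error alone, or 0.247 to 0.411 CPM on library totals without TMM. Markers of embryonic stem cells were high in every library (8 of 8 tested, 2 higher and 4 lower, summed level 2670 to 2750 CPM untreated and 1960 to 2360 CPM after 4OHT). Of 10 fibroblast and feeder markers, Lum and Postn had no count in any library and 3 could be tested, with 2 higher and 1 lower. The list's summed level went from 2.88 to 4.02 CPM untreated to 20.8 to 25.1 CPM after 4OHT, most of it from Twist1, which had 425 of its 442 counts after 4OHT. Of 8 markers of surface epithelium, a tissue known for EGF family ligands, Krt5, Krt14, Krt15 and Krt6a had no count. Of the rest 2 could be tested, and neither was called. The summed level was 6.37 to 7.86 CPM untreated and 4.23 to 8.04 CPM treated, most of it from Col17a1 (297 counts in all). Mean CPM went from 4.83 to 5.32 for Col17a1, from 1.44 to 0.81 for Krt17 and from 0.87 to 0.22 for Trp63. Of 8 primitive endoderm markers, 5 could be tested and 2 were lower. The list summed to 135 to 184 CPM untreated and 51.5 to 64.4 CPM treated, most of it from Col4a1 (mean 119 to 38.7) and Dab2 (37.8 to 9.89). Gata4 went from 3.90 to 5.62 and Gata6 from 2.67 to 1.76 CPM, neither called. Sox17, Sox7 and Foxa2 had means of 0.13 to 0.30 CPM. The 8 trophoblast markers (6 tested, 1 higher, 1 lower) summed to 117 to 120 and 83.2 to 99.1 CPM. Most of that was Tfap2c (80.3 to 48.6) and Gata3 (22.8 to 22.9), while Cdx2 went from 0.57 to 1.35 CPM. The part of these cells in the results below was not tested, and in such bulk samples fewer cells of a type and less RNA per cell cannot be told apart.

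Within 2 h of 4OHT, new RNA of Hbegf rose 11.9-fold and that of Errfi1 2.20-fold, and the other dampers, Lrig3 and Lrig1, fell together with Egfr. Of the 10 genes, 8 had enough counts to test: Hbegf, Errfi1 and Erbb2 were higher, Lrig3, Lrig1 and Egfr lower, and Tgfa and Erbb3 did not pass. Areg and Ereg were too low to test in this fit. Across all genes 28.5% were called higher and 28.6% lower, so 3 and 3 of 8 are near that background. The same shares were 17.4% and 41.0% when libraries were scaled by size alone, and 22.7% and 34.3% with upper quartile scaling. With clone as a block they were 34.1% and 33.3%. The tool DESeq2 called 3590 of the 13869 genes higher and 3457 lower, and limma-voom 3960 and 3928. Counts under those settings below are read against these values. No share over all genes was computed at an unadjusted p below 0.05. The median log2 fold change of the 8 was -0.19, against -0.00054 for all tested genes. The CPM of the groups did not overlap for 7 of the 8, against 63.3% of all tested genes. A shift of all fold changes by a median of -0.20 when libraries were scaled by size alone touches the small changes below, and is named where it matters.

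**Figure D1:**
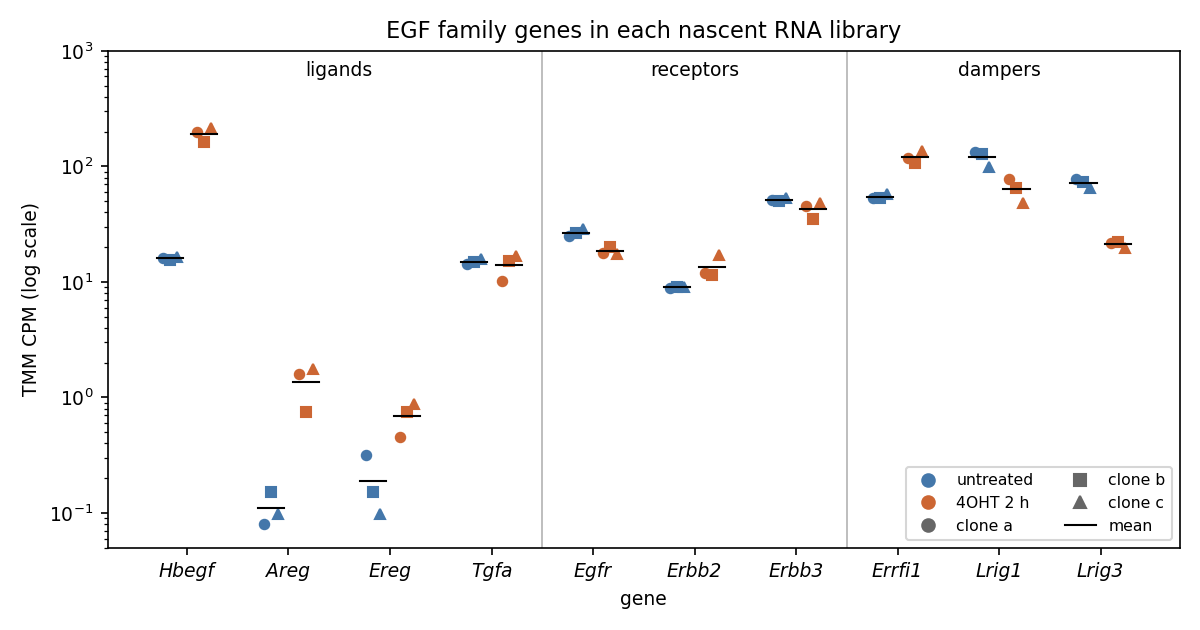
TMM CPM (log axis) of the 10 genes in each of the 6 libraries, blue for untreated and orange after 2 h of 4OHT, with a symbol per clone and a bar at each group's mean. Hbegf and Errfi1 sit higher and Lrig1, Lrig3 and Egfr lower in all 3 treated libraries, and Areg and Ereg lie below 2 CPM throughout.

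Hbegf encodes heparin-binding EGF-like growth factor, a ligand of EGFR and ERBB4 (chromosome 18, 36504927 to 36515805, GRCm38, minus strand, ENSMUSG00000024486.6). It stood at 16.0, 15.5 and 16.4 CPM before treatment (clones a, b and c in turn, as in all such series below), and at 196, 162 and 213 CPM after 4OHT. The lowest treated library was thus far above the highest untreated one, and the untreated libraries differed little among themselves. The log2 fold change was 3.58 ± 0.11 (edgeR adjusted p = 1.2e-08, 3 of 3 clones higher), a rise of 11.9-fold, with 10.5-fold to 13-fold in single clones. That was the 73rd largest rise of 13869 tested genes.

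The nearest tested genes on either side of Hbegf were not called. Pfdn1, a prefoldin subunit gene 50.4 kb away, had a log2 fold change of 0.04 ± 0.07, and Slc4a9, a transporter gene 12.3 kb away, one of -0.96 ± 0.51, from 1.32 to 0.697 CPM (edgeR adjusted p = 0.68 and 0.13). Among 11116 genes ranked by the likeness of their log2 CPM to that of Hbegf over the 6 libraries, Rtn4 (Pearson's r = 0.9999), Cd9 (0.9998) and S100a3 (0.9997) came first. With 2 groups of 3 libraries such a value mostly restates the difference between the groups: 470 genes had r over 0.99, and the 3 named differ in size of response, with log2 fold changes of 0.93, 0.39 and 5.35.

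Areg encodes amphiregulin, a ligand of EGFR (chromosome 5, 91139599 to 91148432, plus strand). Its counts were 1, 2 and 1 without 4OHT and 14, 6 and 12 with it, which is 0.0802, 0.152 and 0.0980 CPM against 1.60, 0.742 and 1.75 CPM. Every treated library was above every untreated one, but each untreated value lies under the 3-count floor. The summed counts, 4 against 32, gave a ratio per unit of depth of 12.1 (95% counting interval 4.30 to 47.1). An exact permutation test (two-sided) of the CPM gave p = 0.10, the smallest that 3 against 3 libraries allow. With no filter on low counts, edgeR gave a log2 fold change of 3.46 with an adjusted p of 0.00016.

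Ereg encodes epiregulin, a ligand of EGFR and ERBB4, and lies next to Areg (chromosome 5, 91074622 to 91093646, plus strand). Its counts were 4, 2 and 1 untreated and 4, 6 and 6 after 4OHT, or 0.321, 0.152 and 0.0980 CPM against 0.457, 0.742 and 0.877 CPM. The groups did not overlap in CPM, although clone a had the same raw count in both. The depth-scaled ratio of 16 to 7 summed counts was 3.46 (95% counting interval 1.35 to 9.95), with p = 0.10 in the exact permutation test. On the log2 scale this ratio was 1.79, and it was 2.40 when clone a's untreated library was left out and 2.65 when both of its libraries were. Without the filter the log2 fold change was 1.73 with an edgeR adjusted p of 0.047. The antisense gene Gm19610 overlaps 152 bases of Ereg.

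Areg and Ereg belong to a run of 4 EGF family ligand genes on chromosome 5, in the order Epgn, Ereg, Areg and Btc, with gaps of 39.4, 46.0 and 209 kb. The outer genes of the run, which encode epigen and betacellulin, had few counts and ratios whose intervals span 1. Epgn (91027464 to 91035215) went from 14 to 5 summed counts, a depth-scaled ratio of 0.541 (95% counting interval 0.152 to 1.59), and Btc (91357261 to 91402994) from 7 to 4, a ratio of 0.865 (0.186 to 3.40). Their exact permutation p-values were 0.30 and 0.70. The interval of Areg lies above those of both, while that of Ereg overlaps them. The nearest tested genes beyond the run fell: the log2 fold change was -1.06 ± 0.22 for Mthfd2l, a mitochondrial folate enzyme gene, and -1.66 ± 0.20 for Parm1 (edgeR adjusted p = 0.0024 and 5.2e-05).

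The promoter of Areg is shown because it holds a full cAMP response element (CRE, TGACGTCA), the site bound by CREB and ATF factors. The same letters also stand before a RefSeq start of Errfi1, with site and start both inside the annotated gene and not upstream of it. The Areg sequence is the 250 bases before its RefSeq start (chr5:91139349-91139598, GRCm38.p6, plus strand, 57.2% G and C). It is read 5′ to 3′, with matches to the motifs searched in capitals.
Areg: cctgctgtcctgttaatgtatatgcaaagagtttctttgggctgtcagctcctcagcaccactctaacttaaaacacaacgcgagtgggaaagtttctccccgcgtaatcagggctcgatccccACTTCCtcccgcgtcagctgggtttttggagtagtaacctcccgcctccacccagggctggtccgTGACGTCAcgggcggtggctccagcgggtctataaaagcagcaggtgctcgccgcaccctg
The CRE begins 61 bases before the start, and the other match, 126 bases before it, is an ETS core (GGAAGT) on the opposite strand.

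Tgfa encodes transforming growth factor alpha, another EGFR ligand (chromosome 6, 86195223 to 86275719, plus strand). It stood at 14.2, 14.9 and 15.8 CPM untreated and at 10.2, 15.1 and 16.7 CPM after 4OHT. The groups overlapped, with the treated library of clone a lowest and that of clone c highest of all 6. This gave a log2 fold change of -0.11 ± 0.17 with a 95% interval of -0.48 to 0.26 (edgeR adjusted p = 0.60), and the clones gave -0.47, 0.02 and 0.08.

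Levels of different genes are compared per kilobase, over exons and over the whole gene span, since the sources used here do not say which of these was counted. Per kilobase of exon, Hbegf made up 58.7%, 56.6% and 57.2% of the summed level of the 4 ligand genes without 4OHT, and 93.1%, 91.5% and 91.2% after 4OHT. Tgfa held 38.7% to 41.1% before and 3.59% to 6.36% after, at a level of its own that did not pass the test. Per kilobase of span, Hbegf went from 87.1% to 87.9% up to 97.7% to 98.2%. The summed level rose from 5.65, 5.66 and 5.92 to 43.6, 36.6 and 48.2 CPM per kb of exon, so by either length nearly all newly made RNA of these 4 ligand genes after 4OHT was from Hbegf.

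**Figure D2:**
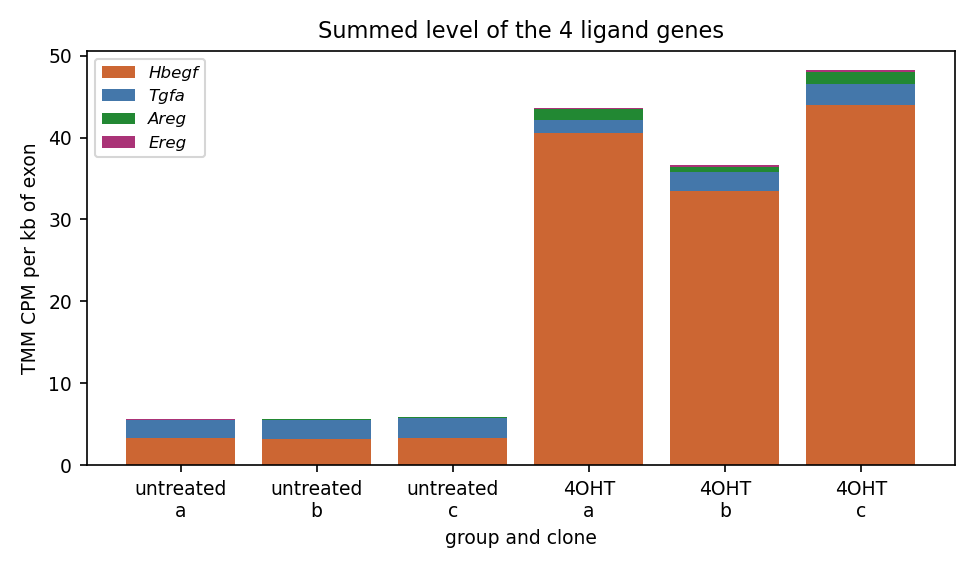
Stacked bars of the level of Hbegf, Tgfa, Areg and Ereg in each library, in TMM CPM per kb of exon. The untreated bars reach 5.65 to 5.92 and the treated bars 36.6 to 48.2, and Hbegf fills over 91% of each treated bar.

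Among the receptors, Egfr fell and Erbb2 rose modestly, and Erbb3 lay at the edge of the test. Egfr, the receptor for Hbegf, Areg, Ereg and Tgfa (chromosome 11, 16752203 to 16918158, plus strand), stood at 24.8, 26.5 and 28.5 CPM untreated and at 17.9, 20.2 and 17.5 CPM after 4OHT. All treated libraries were below all untreated ones. The log2 fold change was -0.52 ± 0.10 (edgeR adjusted p = 0.0018, lower in 3 of 3 clones), to 69.9% of the untreated level. Its nearest tested neighbours were Sec61g at 244 kb, which rose by 0.98 ± 0.07, and Fbxo48 at 33.2 kb, with 0.04 ± 0.19 (edgeR adjusted p = 1.1e-06 and 0.88). The antisense gene Egfros overlaps 15272 bases of Egfr, and without stated strand their reads cannot be told apart.

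Erbb2, the ligandless partner receptor (chromosome 11, 98412470 to 98437716, plus strand), stood at 8.90, 8.96 and 9.02 CPM untreated and at 11.9, 11.4 and 17 CPM after 4OHT. The groups did not overlap, and clone c was the highest treated library by a wide margin. This gave a log2 fold change of 0.57 ± 0.16 (edgeR adjusted p = 0.013, higher in 3 of 3 clones). Leaving out clone c's treated library gave 0.38 (adjusted p = 0.036), leaving out both of its libraries 0.36 (0.056) and scaling by library size alone 0.37 (0.078), within a range of 0.0015 to 0.078 over all alternatives. Its neighbour Pgap3, a GPI-anchor gene 12.0 kb away, rose by 0.48 ± 0.14, while Grb7, an adaptor gene 8.68 kb away on the other side, had 0.10 ± 0.17 (adjusted p = 0.013 and 0.64). Mien1, with 287 counts in all, overlaps 9 bases of Erbb2, and its response is not given here.

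Erbb3, the neuregulin receptor with a weak kinase (chromosome 10, 128567523 to 128589652, minus strand), stood at 51.5, 50 and 53.4 CPM untreated and at 45.2, 35.1 and 48.4 CPM after 4OHT. The groups did not overlap, with clone b the lowest. The log2 fold change of -0.27 ± 0.11 had an edgeR adjusted p of 0.055 and a 95% interval of -0.51 to -0.03. With clone as a block the value was -0.28 with an adjusted p of 0.0029. The call turned on further settings too: adjusted p was 0.0039 by library size alone (-0.47), 0.019 when clone c's treated library was left out (-0.35) and 0.20 when clone b's was (-0.14). Over all alternatives it ranged from 0.0029 to 0.24.

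Erbb3 was the most transcribed of the 3 receptor genes per kilobase in both groups. Untreated it had 8.58 ± 0.282 CPM per kb of exon (SD, n = 3), against 2.35 ± 0.166 for Egfr and 1.72 ± 0.0114 for Erbb2, and after 4OHT 7.13 ± 1.15 against 1.64 ± 0.125 and 2.57 ± 0.592. By exon length Egfr thus stood above Erbb2 before and below it after treatment, without overlap of the libraries in either group. By span, however, Egfr (0.160 ± 0.0113 CPM per kb) was already below Erbb2 (0.355 ± 0.00236) before treatment, so the order rests on the length used. The ratio of Erbb2 to Egfr counts within a library, which depends on no scaling, went from 0.316 to 0.359 untreated up to 0.564 to 0.967 after 4OHT. This ratio and that of Errfi1 to Lrig3 below were chosen after the values were seen, and are given without a test.

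The 3 genes grouped as dampers moved in opposite directions. Errfi1 (chromosome 4, 150853919 to 150868892, plus strand) encodes the ERRFI1 protein that binds and blocks the receptors' kinase domains. It stood at 52.7, 53.1 and 57.6 CPM untreated and at 118, 107 and 135 CPM after 4OHT, with each treated library well above each untreated one. The log2 fold change was 1.14 ± 0.09 (edgeR adjusted p = 3.6e-06, 3 of 3 clones higher), a rise of 2.20-fold, with 2.02-fold to 2.34-fold in single clones. Park7, its nearest tested neighbour at 28.2 kb, fell by 0.95 ± 0.07 on the log2 scale (edgeR adjusted p = 1.7e-06). Slc45a1, 202 kb away on the other side, had 0.15 ± 0.23 (edgeR adjusted p = 0.61). The antisense gene 1700045H11Rik overlaps 1031 bases of Errfi1.

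Lrig3, a leucine-rich repeat membrane protein related to LRIG1 (chromosome 10, 125966168 to 126015359, plus strand), stood at 77.9, 72.6 and 65.5 CPM untreated and at 21.6, 22.1 and 19.6 CPM after 4OHT. The treated libraries lay close together and far below the untreated ones. This gave a log2 fold change of -1.77 ± 0.09 (edgeR adjusted p = 2.3e-07, 3 of 3 clones lower), to 29.4% of the untreated level, the 312th largest fall of 13869. The genes most like it over the 6 libraries were Kirrel (Pearson's r = 0.9995, log2 fold change -1.29), Arvcf (0.9995, -1.60) and Rreb1 (0.9994, -1.20), with 288 genes over 0.99. Its nearest tested neighbours, Slc16a7 at 577 kb and Atp23 at 853 kb, were lower as well (-1.26 ± 0.36 and -0.57 ± 0.14, adjusted p = 0.012 and 0.0064).

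Lrig1, which promotes the loss of ERBB receptors from the membrane (chromosome 6, 94604529 to 94700158, minus strand), stood at 133, 129 and 98.9 CPM untreated and at 77.2, 64.8 and 48.5 CPM after 4OHT. Clone c was the lowest library in each group, and the groups did not overlap. The log2 fold change was -0.91 ± 0.16 (edgeR adjusted p = 0.00063, 3 of 3 clones lower), to 53.0% of the untreated level. Slc25a26, with 7734 counts in all, overlaps 144 bases of Lrig1, and its response is not given here. The nearest tested genes that do not overlap Lrig1 were Magi1 at 321 kb and Kbtbd8 at 417 kb. They had -0.05 ± 0.12 and 0.05 ± 0.08 (edgeR adjusted p = 0.73 and 0.57).

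Per kilobase of exon, the order of the 10 genes changed with 4OHT. Untreated, Lrig1 (21.5 ± 3.32 CPM per kb) led Errfi1 (15.2 ± 0.763), Lrig3 (8.62 ± 0.748), Erbb3, Hbegf (3.30 ± 0.0919), Egfr, Tgfa (2.30 ± 0.123), Erbb2, Areg (0.0905 ± 0.0307) and Ereg (0.0461 ± 0.0281). The neighbours Lrig3 and Erbb3, Egfr and Tgfa, and Areg and Ereg overlapped between libraries. After 4OHT Hbegf (39.4 ± 5.37) and Errfi1 (33.5 ± 3.94) led with overlapping libraries, ahead of Lrig1 (11.4 ± 2.58), Erbb3, Erbb2, Lrig3 (2.53 ± 0.162), Tgfa (2.15 ± 0.522), Egfr, Areg (1.12 ± 0.448) and Ereg (0.168 ± 0.0519). From Erbb2 to Egfr each neighbour in that order overlapped the next. Per kilobase of span, Errfi1 led untreated (3.64 ± 0.182) and Hbegf after 4OHT (17.5 ± 2.38), and Lrig1 was the fifth, then the fourth.

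Within a library, Errfi1 had 0.677 to 0.880 counts for each count of Lrig3 untreated and 4.83 to 6.90 after 4OHT. The ranges did not overlap. These counts are not corrected for length: per kilobase, of exon or of span, Errfi1 stood above Lrig3 in both groups.

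**Figure D3:**
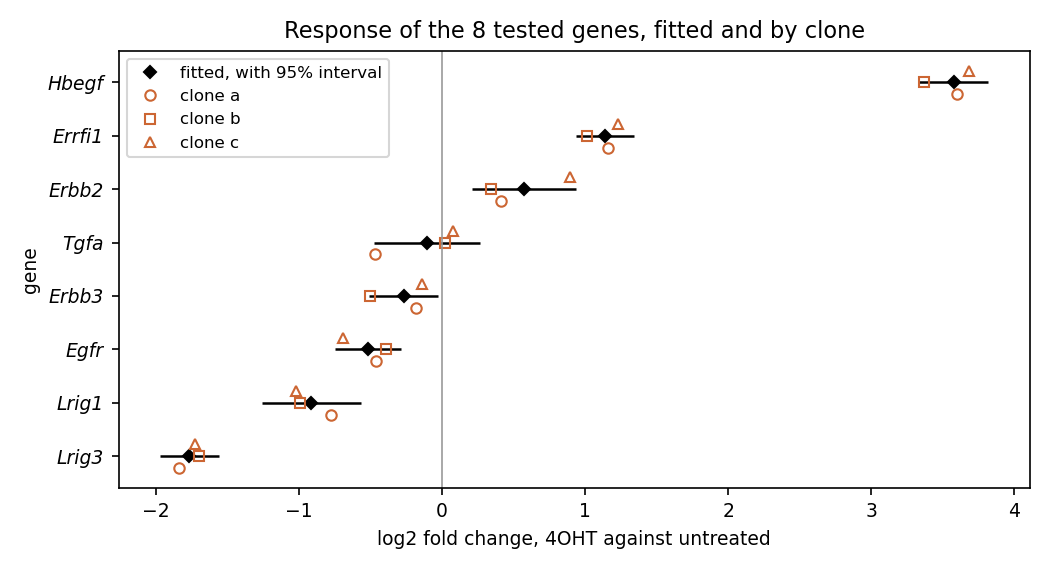
Log2 fold change of the 8 tested genes after 2 h of 4OHT against untreated: black diamonds are edgeR fits with 95% intervals, open symbols the log2 ratio within each clone. The intervals of Hbegf, Errfi1 and Erbb2 lie above 0, those of Lrig3, Lrig1, Egfr and Erbb3 below it, and that of Tgfa spans it; Erbb3 did not pass after adjustment.

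A promoter of Errfi1 is shown for comparison with that of Areg, again as 250 bases on the plus strand before a RefSeq start in GRCm38.p6, with the motif match in capitals. Errfi1 has a pair of RefSeq starts, and this is the one with a match (chr4:150854820-150855069, 64.8% G and C). It lies inside the annotated gene, in an intron, and overlaps an exon of the antisense gene 1700045H11Rik. The bases that follow this start match no GENCODE M21 transcript of Errfi1, whereas those after the Areg start match one of Areg.
Errfi1: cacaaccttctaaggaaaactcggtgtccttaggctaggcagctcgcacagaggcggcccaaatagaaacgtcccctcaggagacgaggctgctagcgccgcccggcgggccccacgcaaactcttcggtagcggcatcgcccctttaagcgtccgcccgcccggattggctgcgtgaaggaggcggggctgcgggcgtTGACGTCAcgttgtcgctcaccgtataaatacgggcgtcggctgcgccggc
The CRE of Errfi1 begins 51 bases before this RefSeq start, near the distance seen in Areg from a start that matches a transcript. Of the 10 genes, 7 had a window (Areg, Tgfa, Egfr, Erbb2, Errfi1, Lrig1 and Lrig3). Both strands were searched, over 300 bases, for AP-1 (TGANTCA), CRE (TGACGTCA), an ETS core (GGAAGT), an EGR site (GCGNGGGCG) and the CArG box of SRF. No match of one motif overlapped another in these genes. The CRE was found in Areg and Errfi1 and the ETS core in Areg and Erbb2 (206 bases before and 4 bases after the start), and the other genes held none of the 5. Over all 32851 windows of that length, 1.79% held the CRE, 23.8% the ETS core, 7.81% the AP-1 motif, 5.55% the EGR site and 1.63% the CArG box. A match describes letters and does not show that a factor binds there.

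Of the other 8 genes of the family 6 could be tested, with log2 fold changes of -0.30 to 0.90. Of these, 1 was higher and 0 lower by edgeR, by DESeq2 and by limma-voom. At an unadjusted p below 0.05 the counts were the same, with no share of all genes to read them against. Across all genes edgeR called 28.5% higher and 28.6% lower. The median of the 6 was 0.09, or -0.11 by library size. Erbb4, the fourth receptor and like Erbb3 a receptor of neuregulins, went from 5.31 ± 1.41 to 9.63 ± 3.28 CPM (SD, n = 3), a log2 fold change of 0.90 ± 0.27 (edgeR adjusted p = 0.016). The groups overlapped, since clones a and b were higher after 4OHT and clone c lower: 4.97, 4.10 and 6.86 CPM untreated and 11.7, 11.4 and 5.85 CPM after 4OHT. The call was lost when 1 library was left out in 3 of 6 cases, with adjusted p of 0.066 without untreated b, 0.070 without treated a and 0.073 without treated b, and also without both libraries of clone a (0.14) or of clone b (0.21). The founding ligand gene Egf had -0.19 ± 0.16, and the neuregulin genes had 0.23 ± 0.14 (Nrg1), 0.23 ± 0.20 (Nrg2), -0.30 ± 0.31 (Nrg3) and -0.05 ± 0.17 (Nrg4, which overlaps Fbxo22). With clone as a block Nrg1 passed too (0.22, edgeR adjusted p = 0.015), which makes 2 higher.

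Genes that release or carry the ligands were called in both directions: 6 of 12 were higher and 2 lower (median 0.22), against 28.5% and 28.6% of all genes. By library size 4 were higher and 4 lower (median 0.02), and with clone as a block 8 and 3. Rhbdf1 and Rhbdf2 encode the inactive rhomboids that escort the sheddase ADAM17 to the surface. Rhbdf1 rose from 23.3 ± 1.86 to 124 ± 3.52 CPM (2.42 ± 0.08, edgeR adjusted p = 1.3e-08), and Rhbdf2 fell from 36.4 ± 2.07 to 28.0 ± 2.11 CPM (-0.38 ± 0.09, adjusted p = 0.0051). Adam12, a metalloprotease gene linked to shedding of HB-EGF, rose from 1.32 ± 0.460 to 7.74 ± 1.17 CPM (2.51 ± 0.25, adjusted p = 1.7e-05), and the proprotein convertase Furin from 12.9 ± 1.64 to 28.7 ± 6.64 CPM (1.15 ± 0.17, adjusted p = 0.00022). Adam15, another metalloprotease gene, fell by 0.59 ± 0.14 on the log2 scale. Without both libraries of clone b the adjusted p was 0.059 for Adam15 and 0.054 for Rhbdf2, and without those of clone a 0.094 for Rhbdf2. Adam17 itself, named here outside the rule for naming genes, was higher by 0.30 ± 0.07 (adjusted p = 0.0031), a call lost by library size (0.10, adjusted p = 0.26).

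Adaptors and effectors that bind the activated receptors were higher in 8 of 16 and lower in 0 by edgeR, DESeq2 and limma-voom (median 0.24). At an unadjusted p below 0.05 the counts were the same, with no share of all genes to read them against. Across all genes edgeR called 28.5% higher and 28.6% lower. Of the 16 adaptors and effectors, 7 were higher and 2 lower by library size (median 0.04), and 10 and 0 with clone as a block. Those with the smallest adjusted p were the docking protein Gab2, with a log2 fold change of 1.60 ± 0.14, the RAS exchange factor Sos2, with 1.25 ± 0.11 (19.1 ± 0.438 to 45.4 ± 5.82 CPM), and the receptor substrate Eps8, with 0.80 ± 0.07, at edgeR adjusted p of 6.5e-06, 5.7e-06 and 9.6e-06.

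Of 19 other genes that dampen ERBB receptors or take them to the lysosome, 8 were higher and 2 lower (median 0.11), against 4 and 5 with a median of -0.09 by library size, 4 lower by upper quartile scaling, and 9 higher and 4 lower with clone as a block. The 4 higher of 19 by library size are a share near that of all genes, and the 5 lower a smaller one. Socs5, an adaptor that sends EGFR for degradation, rose from 19.0 ± 1.89 to 102 ± 8.60 CPM (2.43 ± 0.10, edgeR adjusted p = 4.6e-08). The phosphatase genes Ptpn1 and Ptprj rose by 1.27 ± 0.07 and 1.24 ± 0.11. Cblc, a ubiquitin ligase of the CBL family, fell from 9.75 ± 1.24 to 3.51 ± 0.765 CPM (-1.48 ± 0.20, adjusted p = 0.00013), and the phosphatase gene Ptprk fell by 0.37 ± 0.13 on the log2 scale with overlapping groups (adjusted p = 0.036). The call on Ptprk was lost without untreated a (adjusted p = 0.11), untreated b (0.11) or treated c (0.091), and had an adjusted p of 3.6e-07 with clone as a block. Lrig2, the third gene of the Lrig family and also named outside that rule, had -0.18 ± 0.08 (edgeR adjusted p = 0.073), and passed with clone as a block (-0.19, 0.0087) and by library size (-0.39, 0.0033).

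For scale, 10 of 12 feedback and early genes of the ERK pathway were higher and 0 lower by edgeR, DESeq2 and limma-voom (median 2.65). At an unadjusted p below 0.05 the counts were the same, with no share of all genes to read them against. Across all genes edgeR called 28.5% higher and 28.6% lower. The log2 fold change was 5.86 ± 0.18 for Egr1, 5.16 ± 0.15 for Spry4, 4.98 ± 0.11 for Fos and 2.14 ± 0.09 for Dusp6. Hbegf lay between Dusp6 and Fos, and Errfi1 below all 4.

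**Figure D4:**
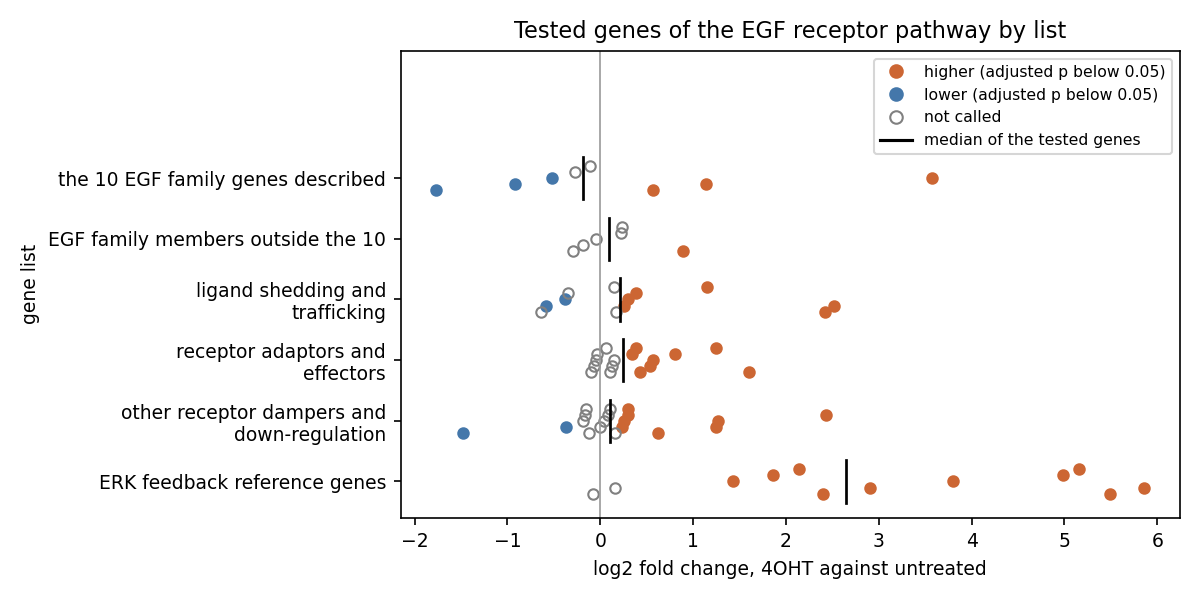
Log2 fold change of every tested gene of the described genes and of 5 lists of the pathway, orange for called higher, blue for called lower, open for not called, with a black bar at each median. The described genes spread from -1.77 to 3.58, and the other EGF family genes from -0.30 to 0.90.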

How the data were processed

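Nascent RNA captured after an ethynyl uridine label was sequenced in 6 libraries. The authors deposited raw read counts per gene symbol, not normalized; STAR, featureCounts and mm10 are listed in the submitters' processing notes. Their versions, the annotation, the strand setting and the counted feature are not stated there. Each column was assigned by its clone letter and time point. Positions and lengths came from GENCODE M21 (GRCm38), in which 25618 symbols occurred once, 45 several times and 236 never.

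Counts were filtered with filterByExpr (minimum count 10, minimum total 15), scaled by TMM and tested with glmQLFit and glmQLFTest in edgeR 4.0.16 (R 4.3.3) with no clone term. The same steps were run on simulated data with few changed genes, balanced in direction, and no clone effect. That run does not test the scaling or the unpaired fit on data with as many changes as here. The SE is the fold change divided by the square root of F. A shift in the overall amount of transcription is not visible after TMM scaling. Ratios of summed counts have exact (Clopper-Pearson) intervals; without molecular identifiers these cover counting error alone. Separate culture of the clones is not stated, so the p-values reflect only how these libraries vary.

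Libraries are paired by the clone that the labels give. The 2 libraries of a clone deviated together from their group means, with correlations of 0.282 (a), 0.165 (b) and 0.357 (c). The block on clone was an alternative, as were DESeq2 1.42.0, limma-voom (limma 3.58.1), other scalings, filters and thresholds, and leaving out libraries or clones.

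The 10 genes and the lists were chosen with earlier results of these data known. Named beside the 10 are all other EGF family genes, per list the 3 called genes with the smallest adjusted p and those called against the list's majority, 4 ERK reference genes, and the 3 genes most like the strongest riser and faller (mean log2 CPM of at least 2, log2 CPM with a prior count of 2, predicted genes passed over). Nearest tested neighbours and overlapping genes are named by position, without the neighbours of Tgfa and Erbb3. Genes that overlap a described gene were passed over as neighbours. Of the 18 distinct neighbours of the 10 genes 2 were higher and 6 lower, against 28.5% and 28.6% of all genes. Promoters are from RefSeq (GRCm38.p6), 250 bases before to 50 after a start. A planned comparison of protein sequences was not run.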

Additional observations from a re-analysis of the deposited data

How the results depend on the processing

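Hbegf (log2 fold change 3.38 to 3.68), Errfi1 (0.94 to 1.22), Lrig3 (-1.97 to -1.71), Lrig1 (-1.12 to -0.76) and Egfr (-0.72 to -0.46) kept direction and call in all 18 alternatives of tool, scaling, filter, block and left-out libraries, and Tgfa was called in none. Erbb2 lost its call in 2, as given above, and Erbb3 gained one in 8. Beside those given above for Erbb3, these were upper quartile scaling (edgeR adjusted p = 0.017), no filter (0.041) and leaving out both libraries of clone c (0.0066). The others were limma-voom (adjusted p = 0.045) and DESeq2 with the block (0.044). With clone as replicate block 3 of the 10 genes were higher and 4 lower, the fourth being Erbb3. With no filter 5 were higher, Areg and Ereg among them, and 4 lower, Erbb3 among them. Over all genes that setting gave 3974 higher and 4086 lower of 19402. With a log2 fold change of at least 1 only Lrig3 of the lower genes was left (1), and 2 higher genes. Across all genes, 3953 were higher and 3968 lower; library size alone gave 2407 higher and 5684 lower, and a log2 fold change of at least 1 left 947 higher and 1324 lower. In the lists, the block gave 2 other EGF family genes higher (against 1) and 4 other dampers lower (against 2). Library size alone gave 4 shedding genes lower (against 2), 2 adaptors lower (against 0), and 4 other dampers higher and 5 lower (against 8 and 2). Upper quartile scaling gave 4 shedding genes and 4 other dampers lower. The cause of these differences was not tested. Depth limits Areg, Ereg, Epgn and Btc, with at most 36 counts each in all.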
